A study of Mus musculus with 8 samples.

Results

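Interferon response genes are the genes that cells switch on when they sense type I or type II interferon. Of them 42 were listed by symbol, at a time when earlier results of these data were known. Of the 42 genes, 38 were measured by a probe set (a transcript cluster) that names that gene alone, among 22180 genes on the array. Oas1a, Dtx3l and Gbp2 were left out because the annotation pairs their probe sets with 2 genes each, and Ifi44 was not analysed here. The 38 genes fall into 28 genes typical of the type I response, 7 guanylate-binding or immunity-related GTPase genes and 3 genes of antigen processing.

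RNA came from 1 cm of whole colon, starting 1.5 cm from the anus, of 4 Ptch1ΔCol1 mice and 4 controls. Ptch1 encodes the receptor that holds Hedgehog (Hh) signalling in check, and its loss in stromal cells was used to ask how stromal Hh activation changes gene expression in normal colon. All Ptch1ΔCol1 mice carried Col1a2CreER, a tamoxifen-inducible Cre driven by a collagen promoter active in stromal cells, together with Ptch1fl/fl. Ptch1ΔCol1 replicates 1 and 2 also carried R26-LSL-tdTomato. The controls had no Cre, and were Ptch1fl/+ in replicates 1 and 2 and R26-tdTomato in replicates 3 and 4. All 8 mice were injected with tamoxifen at 5 mg per 25 g body weight and killed 7 days later, and their ages are not stated in the sources used here. Each group had 3 females and 1 male, the males being Ptch1ΔCol1 replicate 3 and control replicate 2. As the tissue was taken whole, with mucosa, lymphoid follicles and muscle, fewer cells of a type and less RNA per cell cannot be told apart in these values.

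Type I interferons bind the receptor Ifnar1 with Ifnar2 and lead a complex that holds Stat2 and Irf9 to bind the interferon-stimulated response element (ISRE) in the promoters of antiviral genes. Interferon-γ acts through the γ-activated site (GAS), and is a strong inducer of the GTPases and of antigen processing genes. In the gut a resting level of these genes is kept up by the response to microbes and viruses, in epithelial and immune cells.

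RefSeq promoter windows (assembly GRCm38.p6, 250 bases before to 50 after the transcription start) were at hand for 31 of the 42 genes, and were searched on both strands for the ISRE core GAAANNGAAA and for TTCNNNGAA, the GAS, which reads the same on both strands. The ISRE core was present in 18 of 31 (58.1%), against 3.99% of 27025 genes with such a window. The GAS was present in 8 of 31 (25.8%), against 9.55% of all genes. All 6 GTPase genes with a window held an ISRE core, as did 12 of 22 type I genes and 0 of 3 antigen processing genes. A GAS was held by 3 of 6 GTPase genes, 4 of 22 type I genes and 1 of 3 antigen processing genes. A match is a run of letters and not a measured binding site, and neighbouring ISRE matches may overlap. Irf7, Oasl2, Usp18, Rtp4 and Parp14 had no match, for want of a motif or of a window. The 160 bases before the start are printed for 7 of the genes with a match, with the matches to either motif in capitals.
Ifit1, chr19:34640729-34640888, plus strand: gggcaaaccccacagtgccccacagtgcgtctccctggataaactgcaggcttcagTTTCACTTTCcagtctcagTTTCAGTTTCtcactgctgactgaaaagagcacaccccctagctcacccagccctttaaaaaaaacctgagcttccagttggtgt
Ifit3, chr19:34583369-34583528, plus strand: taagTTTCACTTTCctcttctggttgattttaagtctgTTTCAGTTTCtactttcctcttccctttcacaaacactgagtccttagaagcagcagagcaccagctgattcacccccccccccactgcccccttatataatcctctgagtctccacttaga
Isg15, chr4:156200819-156200978, minus strand: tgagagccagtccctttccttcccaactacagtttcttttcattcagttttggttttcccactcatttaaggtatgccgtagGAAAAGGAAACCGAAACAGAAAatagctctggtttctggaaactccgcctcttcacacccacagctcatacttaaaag
Oas3, chr5:120777660-120777819, minus strand: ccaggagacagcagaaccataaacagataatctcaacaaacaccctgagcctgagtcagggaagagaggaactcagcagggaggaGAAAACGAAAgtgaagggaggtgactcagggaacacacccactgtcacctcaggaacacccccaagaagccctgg
Gbp3, chr3:142559884-142560043, plus strand: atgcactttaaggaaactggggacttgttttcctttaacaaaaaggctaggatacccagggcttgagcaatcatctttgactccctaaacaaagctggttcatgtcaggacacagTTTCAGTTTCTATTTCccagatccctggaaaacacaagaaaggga
Igtp, chr11:58199396-58199555, plus strand: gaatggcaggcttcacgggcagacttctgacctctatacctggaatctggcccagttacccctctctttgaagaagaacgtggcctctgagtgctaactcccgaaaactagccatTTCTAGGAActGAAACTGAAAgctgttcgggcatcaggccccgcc
Irgm2, chr11:58214817-58214976, plus strand: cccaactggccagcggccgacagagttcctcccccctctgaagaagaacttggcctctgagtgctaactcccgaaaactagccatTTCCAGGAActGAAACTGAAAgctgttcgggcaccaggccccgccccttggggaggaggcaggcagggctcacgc

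In Ifit1, Ifit3 and Gbp3 the ISRE core lies on the opposite strand and so reads as its reverse complement. Isg15, which encodes a ubiquitin-like protein, has 3 overlapping matches that begin 78, 72 and 66 bases before the start. Igtp and Irgm2, neighbouring GTPase genes, have the same layout, a GAS followed after 2 bases by an ISRE core, which begins 34 bases before the start of Igtp and 64 bases before that of Irgm2. With these motifs lined up, 107 of 130 bases (82.3%) of the stretches are identical, and the longest shared run is 38 bases.

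As a check of the labels, Gli1, whose expression reports Hh signalling, was at 6.36 to 6.42 in Ptch1ΔCol1 mice and 4.81 to 5.20 in controls (log2 units), a log2 fold change of 1.36 (standard error, SE, 0.10, limma adjusted p = 0.00203). The Ptch1 level does not check the deletion, because the floxed allele still gives mRNA. Values are normalized log2 intensities, and were not compared between genes. Epcam, the epithelial adhesion molecule, was at 11.95 to 12.08 in all 8 mice, so each piece held the epithelium its label implies. Ptch1ΔCol1 replicate 3 stood apart from the other arrays, with a mean correlation of 0.988 where the others had 0.992 to 0.993.

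None of the 38 interferon response genes differed between Ptch1ΔCol1 mice and controls at an adjusted p under 0.05 (limma with Benjamini-Hochberg adjustment over all genes, smallest adjusted p of these genes 0.374), where 0.0271% of all genes did. Their log2 fold changes ran from -0.72 to 0.33, with 33 below and 5 above 0, and 52.9% of all genes lay below 0. The median was -0.19, against -0.01 over all genes. At an unadjusted p under 0.05, 3 of 38 were lower (Ifit3, Parp14 and Gbp3), against 4.91% of all genes, and 0 were higher, against 4.31%. With each mouse left out in turn the first count was 1 to 7, being 7 without control replicate 3 (3.81% of all genes in that fit), 6 without Ptch1ΔCol1 replicate 1 (5.54%), 5 without control replicate 2 (4.63%) and 1 without control replicate 4 (3.41%) or Ptch1ΔCol1 replicate 2 (4.00%). In 0 of 38 did all Ptch1ΔCol1 mice lie below all controls, against 2.90% of all genes, and in 0 of 38 did all lie above, against 2.47%.

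In the mean of the 38 genes the main split was not between the groups but between one control and the other 7 mice. This was less marked in the means of the GTPase and the antigen processing genes. There Ptch1ΔCol1 replicate 3 lay farther from the control mean (-0.385 and -0.55) than control replicate 4 did (0.22 and 0.24). Control replicate 4 had the highest value of all 8 mice in 29 of 38 genes (76.3%), where it was highest in 11.5% of all genes, and was lowest in 0 of 38, against 9.35%. It was highest in 22 of 28 type I genes, 4 of 7 GTPase genes and 3 of 3 antigen processing genes. Control replicate 3, which shares its sex and genotype, was highest in 0 of the 38 and lowest in 6, against 9.19% and 9.02% of all genes. The lowest value was most often that of Ptch1ΔCol1 replicate 3 (12 genes) or replicate 2 (10 genes), mice that were lowest in 16.8% and 13.5% of all genes.

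**Figure D1:**
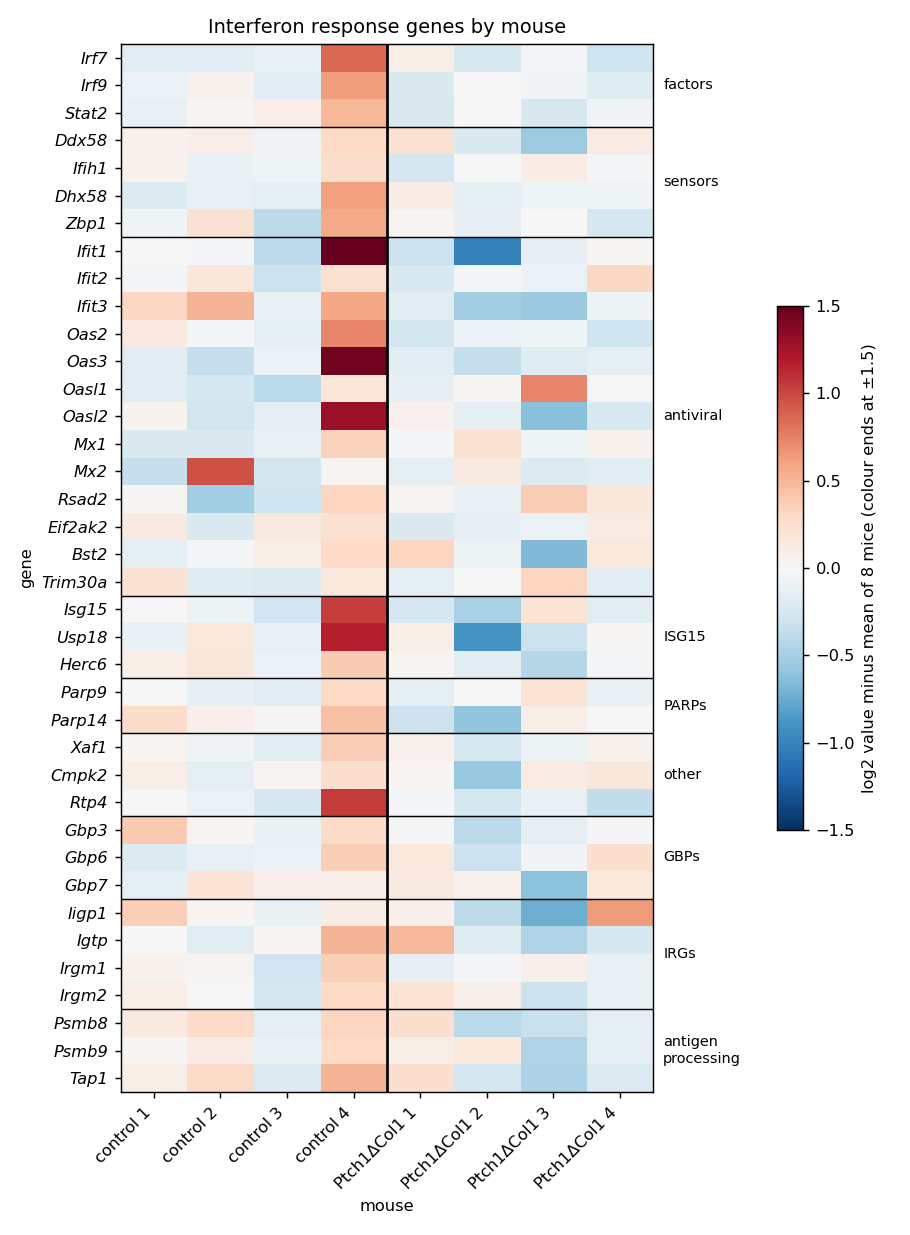
Colour gives the log2 value of each of the 38 genes (rows, grouped by role) in each mouse (columns) minus that gene's mean over the 8 mice. The column of control replicate 4 is red in nearly every row, most of all in Ifit1, Oas3, Oasl2, Usp18, Rtp4 and Isg15, and no other column is.

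Ranked by how far control replicate 4 lay above the mean of the other controls, Ifit1 held rank 3 of all 22180 genes (2.01 log2 units, or 4.02-fold). Oas3 followed at rank 4 (1.64), Oasl2 at rank 7 (1.40), Usp18 at rank 10 (1.18), Isg15 at rank 11 (1.16) and Rtp4 at rank 13 (1.15). Thus 6 of the top 25 genes came from the 38, and Apol9a, Ddx60 and Apol9b, which are interferon-induced as well, made 3 more. When each of the other 7 mice was ranked against its own group in the same way, 0 of the 38 genes were among the 25 farthest above or the 25 farthest below. The median of the 38 genes in this ranking was 0.42, and the lowest were Gbp7 at 0.03, Iigp1 at 0.01 and Mx2 at -0.07.

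The mean over the 28 type I genes was 6.65, 6.65, 6.52 and 7.25 in control replicates 1 to 4 and 6.59, 6.45, 6.58 and 6.61 in Ptch1ΔCol1 replicates 1 to 4. The group means were 6.77 ± 0.33 and 6.56 ± 0.07 (SD, n = 4 mice), a difference of -0.21, which became -0.05 without control replicate 4. The groups overlapped, and the SD of the controls came mostly from that mouse. For the 7 GTPase genes the mean was 6.09, 6.02, 5.91 and 6.30 in controls and 6.14, 5.85, 5.70 and 6.09 in Ptch1ΔCol1 mice (in the same order). Here the difference was -0.14 (-0.06 without control replicate 4), and Ptch1ΔCol1 replicate 1 lay above 3 of the 4 controls. For the 3 antigen processing genes it was -0.28 (-0.20 without that control), again with overlap. The mean over a list was not tested.

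**Figure D2:**
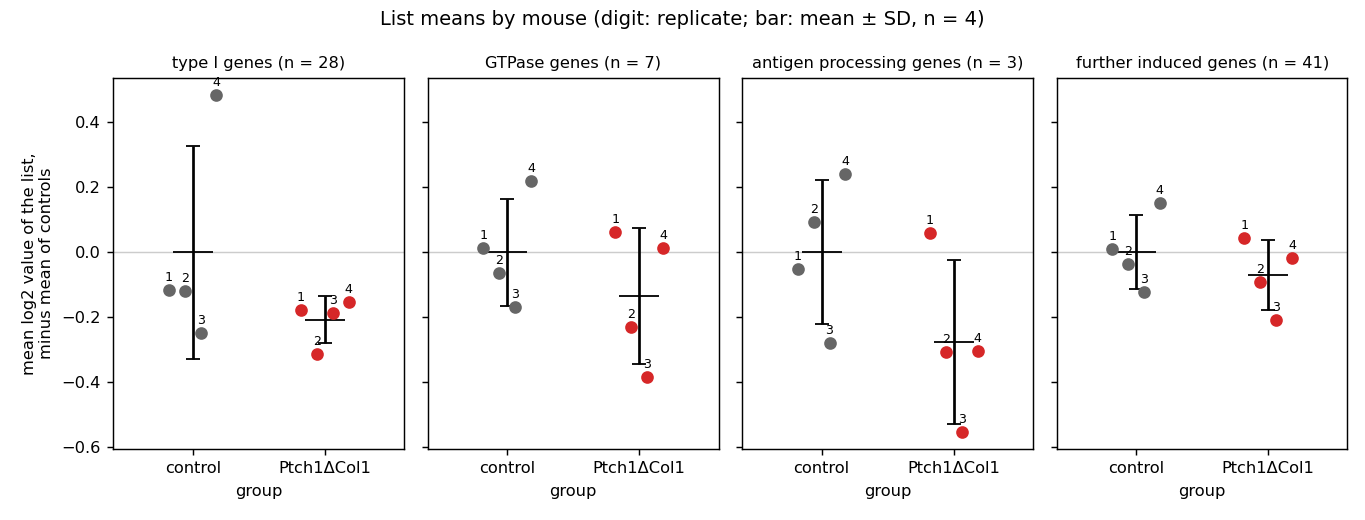
Each point is the mean log2 value of a list in 1 mouse, minus the mean of the 4 controls, with the group mean ± SD as bars (n = 4). In the type I genes control replicate 4 sits 0.48 above the control mean while the other 7 mice lie within -0.31 to -0.12. In the further interferon-induced genes the same control is again the highest, 0.15 above the control mean, followed by Ptch1ΔCol1 replicate 1 at 0.04.

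Without control replicate 4, 26 of the 38 genes were lower and 12 higher in Ptch1ΔCol1 mice, with a median log2 fold change of -0.06. Of all genes 52.3% were then lower. At an unadjusted p under 0.05, Ifit3 was lower (3.41% of all genes) and Mx1 and Rsad2 were higher (3.39% of all genes). None passed an adjusted p of 0.05 (smallest 0.701 from limma), and 0.00451% of all genes did.

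**Figure D3:**
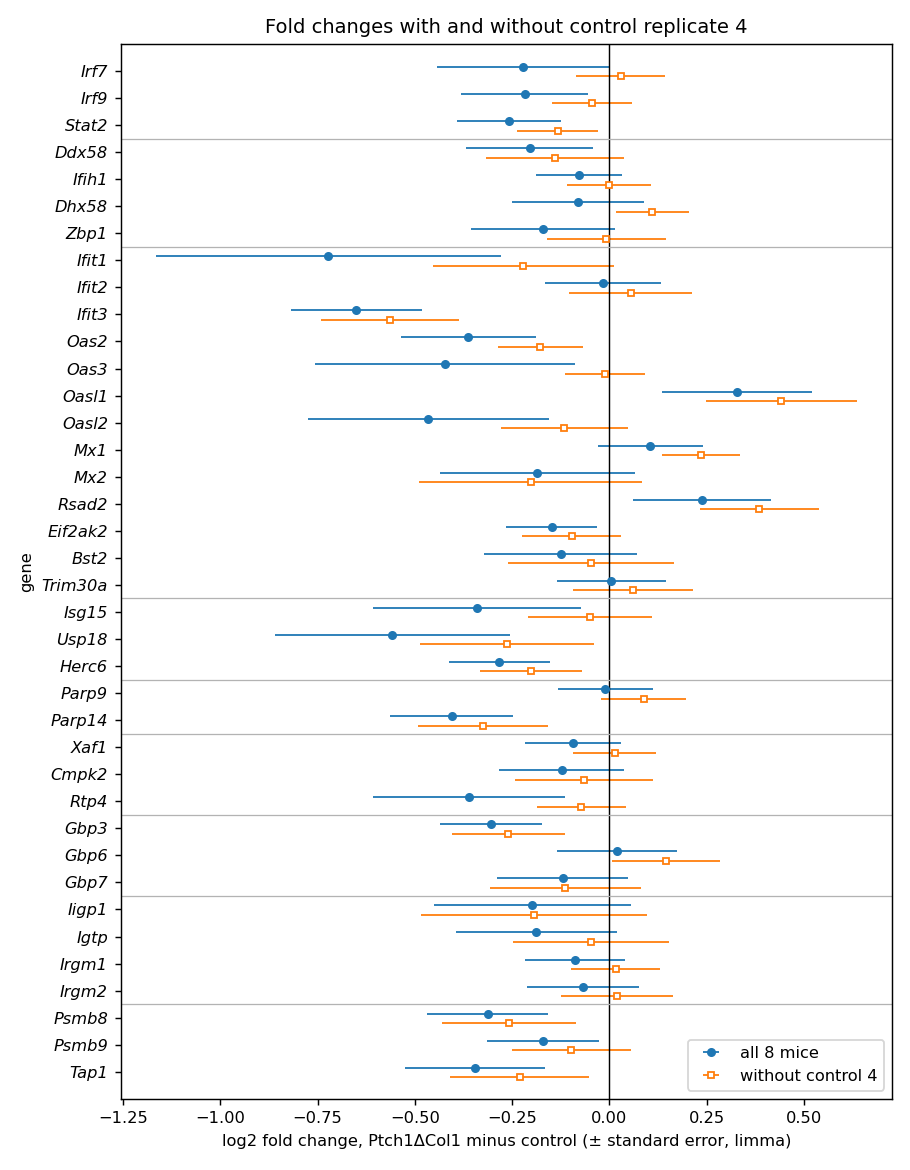
Points give the log2 fold change of each gene, Ptch1ΔCol1 minus control, with its SE from limma, over all 8 mice (filled) and without control replicate 4 (open). Leaving that mouse out moves Ifit1 from -0.72 to -0.22, Oas3 from -0.42 to -0.01 and Oasl2 from -0.47 to -0.12, while Ifit3 stays at -0.56 and Parp14 at -0.33.

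Among the transcription factors, Irf7, which amplifies type I interferon production, was at 8.70, 8.71, 8.76 and 9.73 in control replicates 1 to 4. In Ptch1ΔCol1 replicates 1 to 4 it was at 8.96, 8.63, 8.85 and 8.57, a log2 fold change of -0.22 (SE 0.22). It was thus tight in 3 controls, and its difference turned to 0.03 without control replicate 4. Irf9, the DNA-binding part of the type I complex, was at 8.07, 8.23, 7.99 and 8.79 in controls and 7.94, 8.17, 8.12 and 7.98 in Ptch1ΔCol1 mice. Stat2, its partner, was at 6.95, 7.09, 7.17 and 7.57 in controls and 6.84, 7.06, 6.83 and 7.02 in Ptch1ΔCol1 mice. In all 3 factors control replicate 4 was the highest mouse and the groups overlapped (log2 fold changes of -0.22 for Irf9 and -0.26 for Stat2, adjusted p from limma 0.705 and 0.587).

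Of the sensors of viral nucleic acid, Ddx58, which encodes the RNA sensor RIG-I, was at 8.02, 8.05, 7.90 and 8.25 in controls and 8.18, 7.74, 7.41 and 8.07 in Ptch1ΔCol1 mice. Ifih1, the long RNA sensor MDA5, was at 9.68, 9.53, 9.57 and 9.90 in controls and 9.38, 9.64, 9.74 and 9.61 in Ptch1ΔCol1 mice. Both overlapped, with log2 fold changes of -0.21 and -0.08. Dhx58, a regulator of these sensors, was at 6.52, 6.62, 6.60 and 7.34 in controls and 6.84, 6.60, 6.66 and 6.66 in Ptch1ΔCol1 mice. Zbp1, a sensor that can start cell death, was at 7.33, 7.63, 7.00 and 7.97 in controls and 7.44, 7.28, 7.40 and 7.13 in Ptch1ΔCol1 mice. Control replicate 4 was the highest mouse in all 4 sensors, and without it their log2 fold changes lay between -0.14 (Ddx58) and 0.11 (Dhx58).

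Among the antiviral effectors, Ifit1, which binds viral RNA at its cap, was at 6.38, 6.36, 5.99 and 8.25 in control replicates 1 to 4 and 6.06, 5.37, 6.26 and 6.40 in Ptch1ΔCol1 replicates 1 to 4. Its log2 fold change of -0.72 (SE 0.44, limma adjusted p = 0.641) rested on control replicate 4, and was -0.22 (SE 0.23) without it. Ptch1ΔCol1 replicate 2 was the lowest mouse.

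Ifit3, its partner, behaved otherwise. It was at 5.43, 5.63, 5.01 and 5.70 in controls and at 4.96, 4.61, 4.56 and 5.04 in Ptch1ΔCol1 mice. Ptch1ΔCol1 replicate 4 lay above control replicate 3 by 0.03, and every other Ptch1ΔCol1 mouse lay below every control. The log2 fold change was -0.65 (SE 0.17), with an unadjusted p of 0.00336, a limma adjusted p of 0.374 and p = 0.0571 in a two-sided exact permutation test over the 70 relabellings of the mice. Without control replicate 4 it was -0.56 (SE 0.18, limma adjusted p = 0.701). Ifit3 is among the genes that the study ranked from these very mice, and its direction thus adds no independent evidence. Ifit2, of the same family, had a log2 fold change of -0.02 (SE 0.15).

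The Oas genes encode synthases of the messenger that activates RNase L. Oas3 was at 4.35, 4.17, 4.43 and 5.96 in controls and 4.36, 4.16, 4.33 and 4.37 in Ptch1ΔCol1 mice, so that 7 mice lay within 0.27 log2 units of each other. Oas2 was at 5.70, 5.53, 5.42 and 6.29 in controls and 5.28, 5.47, 5.49 and 5.25 in Ptch1ΔCol1 mice. Here too control replicate 4 was highest, and the log2 fold change was -0.36 (SE 0.17), or -0.18 without it. Oasl2, an Oas-like gene, was at 8.48, 8.16, 8.30 and 9.71 in controls and 8.49, 8.30, 7.80 and 8.20 in Ptch1ΔCol1 mice, again with 1 control far above. Oasl1, a relative that restrains the translation of Irf7, went the other way, at 7.57, 7.48, 7.33 and 7.92 in controls and 7.61, 7.78, 8.47 and 7.75 in Ptch1ΔCol1 mice. Its log2 fold change was 0.33 (SE 0.19, limma adjusted p = 0.630), and control replicate 4 lay above 3 of the 4 Ptch1ΔCol1 mice.

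Rsad2 (viperin, an antiviral enzyme) and Mx1 (a dynamin-like GTPase) were singled out after their values without control replicate 4 were seen. Rsad2 was at 6.73, 6.20, 6.41 and 7.04 in controls and 6.76, 6.61, 7.08 and 6.88 in Ptch1ΔCol1 mice. The log2 fold change of Rsad2 was 0.24 (SE 0.18) over 8 mice and 0.39 (SE 0.15) without that control. Mx1 was at 3.32, 3.32, 3.43 and 3.88 in controls and 3.52, 3.77, 3.47 and 3.61 in Ptch1ΔCol1 mice, a log2 fold change of 0.11 that became 0.24 (SE 0.10). Control replicate 4 thus had the highest or second highest value in both, and the groups overlapped. Oas3, Mx1, Mx2 and Gbp6 are dim on the array, with a mean below percentile 40 of all genes, so their differences are less sure than those of the other 34. The other effectors, Mx2, Eif2ak2, Bst2 and Trim30a, had log2 fold changes between -0.19 and 0.005.

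**Figure D4:**
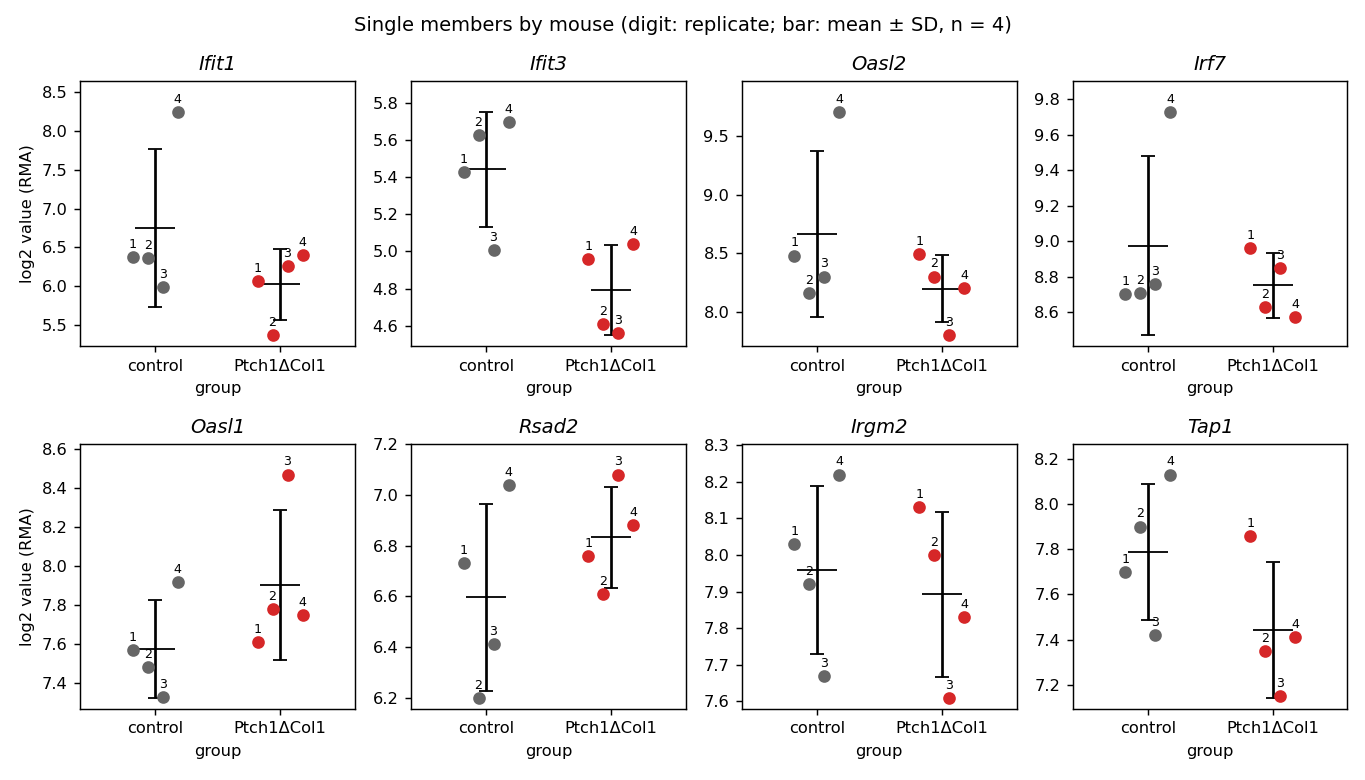
Each panel plots the log2 value of 1 gene in the 4 controls and 4 Ptch1ΔCol1 mice (points, labelled by replicate) with the mean ± SD (n = 4). In Ifit1, Oasl2 and Irf7 control replicate 4 stands alone above 7 mice, whereas in Ifit3 the groups touch only at Ptch1ΔCol1 replicate 4 (5.04) and control replicate 3 (5.01).

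The ISG15 system showed the same control. Isg15 itself was at 4.72, 4.64, 4.43 and 5.76 in controls and 4.48, 4.23, 4.92 and 4.56 in Ptch1ΔCol1 mice. Usp18, the protease that removes Isg15 and damps receptor signalling, was at 5.82, 6.07, 5.81 and 7.08 in controls and 6.01, 5.02, 5.59 and 5.93 in Ptch1ΔCol1 mice. Usp18 had a log2 fold change of -0.56 (SE 0.30, limma adjusted p = 0.601), or -0.26 without control replicate 4. Herc6, the ligase that attaches Isg15 in mice, was at 7.61, 7.69, 7.43 and 7.90 in controls and 7.56, 7.36, 7.09 and 7.49 in Ptch1ΔCol1 mice. Herc6 had a log2 fold change of -0.28 (SE 0.13, limma adjusted p = 0.556), with overlap.

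Parp14, an ADP-ribosyltransferase, was at 8.85, 8.65, 8.60 and 9.02 in controls and 8.27, 7.99, 8.67 and 8.57 in Ptch1ΔCol1 mice, with only Ptch1ΔCol1 replicate 3 inside the control range. Its log2 fold change was -0.41 (SE 0.16), at an unadjusted p of 0.0286, a limma adjusted p of 0.510 and p = 0.0857 in a two-sided exact permutation test. Parp9, which belongs to the same family, was at 7.99, 7.86, 7.81 and 8.28 in controls and 7.85, 7.99, 8.18 and 7.88 in Ptch1ΔCol1 mice, a log2 fold change of -0.01. Rtp4, an interferon-induced chaperone of receptors, was at 6.79, 6.71, 6.56 and 7.84 in controls and 6.78, 6.55, 6.70 and 6.43 in Ptch1ΔCol1 mice. Its log2 fold change was -0.36, or -0.07 without control replicate 4, which lay more than 1 log2 unit above the other controls. Xaf1, a gene linked to cell death, was at 6.24, 6.15, 6.05 and 6.57 in controls and 6.27, 5.98, 6.13 and 6.26 in Ptch1ΔCol1 mice. Cmpk2, a mitochondrial nucleotide kinase, was at 7.53, 7.30, 7.48 and 7.67 in controls and 7.46, 6.87, 7.56 and 7.60 in Ptch1ΔCol1 mice. Both overlapped, with log2 fold changes of -0.09 and -0.12.

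The GTPase genes encode proteins that attack the vacuoles of intracellular pathogens. Control replicate 4 lay a median of 0.35 above the other controls in them, against 0.48 in type I genes and 0.29 in antigen processing genes, and these medians were not tested against each other. Gbp3 was at 5.56, 5.20, 5.07 and 5.46 in controls and 5.14, 4.77, 5.02 and 5.14 in Ptch1ΔCol1 mice, a log2 fold change of -0.31 (SE 0.13, unadjusted p = 0.0428, adjusted p = 0.530 from limma). Only control replicate 3 lay inside the range of the Ptch1ΔCol1 mice, and the highest mouse was control replicate 1. Gbp6 was at 3.02, 3.11, 3.14 and 3.59 in controls and 3.38, 2.91, 3.18 and 3.47 in Ptch1ΔCol1 mice. Gbp7 was at 6.89, 7.23, 7.10 and 7.10 in controls and 7.16, 7.09, 6.41 and 7.18 in Ptch1ΔCol1 mice, where replicate 3 alone was low. The log2 fold changes of these 2 were 0.02 and -0.12.

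Of the immunity-related GTPases, Igtp was at 6.30, 6.14, 6.34 and 6.82 in controls and 6.79, 6.13, 5.86 and 6.07 in Ptch1ΔCol1 mice. Irgm2, with the like promoter, was at 8.03, 7.92, 7.67 and 8.22 in controls and 8.13, 8.00, 7.61 and 7.83 in Ptch1ΔCol1 mice. In both, control replicate 4 was the highest mouse, Ptch1ΔCol1 replicate 1 the second and Ptch1ΔCol1 replicate 3 the lowest. Irgm1, which restrains the other GTPases, was at 6.53, 6.52, 6.19 and 6.83 in controls and 6.35, 6.46, 6.55 and 6.36 in Ptch1ΔCol1 mice. Iigp1, an effector at the vacuole, was at 6.33, 6.0, 5.87 and 6.08 in controls and 6.05, 5.59, 5.24 and 6.61 in Ptch1ΔCol1 mice, with the highest and lowest mouse both in the Ptch1ΔCol1 group. The log2 fold changes of these 4 lay between -0.20 and -0.07.

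The antigen processing genes were each lower in mean. Psmb8, a subunit of the immunoproteasome, was at 7.78, 7.92, 7.50 and 7.95 in controls and 7.88, 7.23, 7.30 and 7.49 in Ptch1ΔCol1 mice. Psmb9, another subunit, was at 6.80, 6.90, 6.68 and 7.08 in controls and 6.88, 6.94, 6.33 and 6.63 in Ptch1ΔCol1 mice. Tap1, part of the peptide transporter, was at 7.70, 7.90, 7.42 and 8.13 in controls and 7.86, 7.35, 7.15 and 7.41 in Ptch1ΔCol1 mice. In all 3, Ptch1ΔCol1 replicate 1 lay within the controls. The log2 fold changes were -0.31 (SE 0.16), -0.17 (SE 0.14) and -0.35 (SE 0.18), for which limma gave adjusted p values of 0.577, 0.744 and 0.590, and they were -0.26, -0.10 and -0.23 without control replicate 4.

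Upstream of these genes, 19 of 21 listed interferon ligands were measured, and 8 were lower and 11 higher. Ifna4 and Ifnab, type I interferons, were higher at an unadjusted p under 0.05, as were 4.31% of all genes. Their log2 fold changes were 0.42 and 0.47, and neither passed (adjusted p from limma 0.499 and 0.519). Ifnl3, a type III interferon, had the next smallest p, with a log2 fold change of -0.52 (SE 0.25). Ifnb1 had one of 0.06 and Ifng, the type II interferon, one of 0.14. The mean of the ligands was 3.66 in control replicate 4 and 3.59 to 3.73 in the other 7 mice. As 15 of the 19, Ifnb1, Ifng, Ifnab and Ifnl3 among them, are dim on the array (mean below percentile 40 of all genes), these values cannot show whether the ligands differed. The probe sets of the near-identical Ifna genes may detect each other, which was not tested.

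None of the 6 receptor genes reached an unadjusted p of 0.05, Ifnar1 having a log2 fold change of -0.10, Ifngr1 one of 0.09 and Ifnlr1, the epithelial receptor for type III interferon, one of 0.17. The same held for 13 of 15 listed kinases, Stat and Irf factors and brakes that were measured. The smallest p values were those of Irf8 (-0.20), Socs3 (0.37) and Socs1 (-0.22), and Irf1 had a log2 fold change of -0.17. Of 13 measured genes that sense nucleic acid or relay that signal, 1 was lower at an unadjusted p under 0.05, against 4.91% of all genes. It was the DNA receptor gene Tlr9 (-0.55). Cgas, the DNA sensor, had a log2 fold change of -0.19 and Unc93b1, which carries Toll-like receptors to endosomes, one of -0.22.

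Of 41 further interferon-induced genes measured of 47 listed, 23 were lower and 18 higher, where 52.9% of all genes were lower. Their median log2 fold change was -0.03, and 0 passed an adjusted p of 0.05. Cxcl10, a chemokine that draws T cells, was at 5.27, 5.49, 5.03 and 5.54 in controls and 4.88, 4.67, 4.68 and 4.83 in Ptch1ΔCol1 mice, with no overlap. Its log2 fold change was -0.57 (SE 0.12, limma adjusted p = 0.290, two-sided exact permutation p = 0.0286, the smallest that 4 mice against 4 allow). It was -0.50 without control replicate 4. Cxcl10, like Ifit3, was ranked by the study from these very mice and adds no independent evidence. At an unadjusted p under 0.05, 2 of the 41 were lower (Cxcl10 and Trim21), against 4.91% of all genes, and 0 were higher, against 4.31%. Lower without overlap were 2 of the 41 (Cxcl10 and Znfx1), against 2.90% of all genes. Trim21, an antibody receptor of the cytosol, had a log2 fold change of -0.38 and Znfx1, an RNA helicase, one of -0.20. Control replicate 4 was the highest mouse in 15 of the 41 (36.6%, against 11.5% of all genes), among them Ddx60, a helicase, at 7.75 against 6.10 to 6.43 in the other controls.

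Of 14 measured genes induced mainly by interferon-γ, 11 were lower and 3 higher, where 52.9% of all genes were lower. At an unadjusted p under 0.05, 2 were lower, against 4.91% of all genes. Psme2, a proteasome activator subunit, had a log2 fold change of -0.42 (SE 0.13, limma adjusted p = 0.448), and every Ptch1ΔCol1 mouse lay below every control. Cd274, which encodes the checkpoint ligand PD-L1, had one of -0.46 (SE 0.16, limma adjusted p = 0.454). Ciita, the master regulator of MHC class II, had one of -0.30.

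Markers of some immune cells, though not of all, were lower in Ptch1ΔCol1 mice. Of 9 measured B cell and follicle markers, 9 were lower in Ptch1ΔCol1 mice (52.9% of all genes), 5 of them at an unadjusted p under 0.05 (4.91% of all genes). Their summed linear level was 195.2 to 561.8 in Ptch1ΔCol1 mice and 355.5 to 1125.3 in controls, lowest in Ptch1ΔCol1 replicate 3. Of the 38 interferon response genes, that mouse was lowest in 12 and highest in 3 (Oasl1, Rsad2 and Trim30a). The sum of 11 T and NK cell markers was 178.5 to 302.1 and 241.0 to 390.8, and that of 12 macrophage markers 2243.0 to 5719.5 and 4027.9 to 4833.9. In both of these, and for fibroblast (6610.8) and endothelial markers (1029.8), Ptch1ΔCol1 replicate 3 was again the lowest of the 8 mice. That mouse had the highest sum of smooth muscle markers (31370.5). Its neutrophil sum was also the highest (3905.2), but most of that sum came from Ly6g, at 11.90 in that mouse. By mean log2 value the highest mouse for neutrophil markers was Ptch1ΔCol1 replicate 2 (6.03), with replicate 3 at 4.88. Higher in Ptch1ΔCol1 mice were 5 of 7 neutrophil, 3 of 6 plasma cell and 6 of 12 macrophage markers. For neutrophil markers this rested mostly on Ptch1ΔCol1 replicate 2. Their mean log2 value lay 1.12 above the control mean in that mouse and at -0.13 to -0.03 in the other Ptch1ΔCol1 mice. The part of these cells in the lower values of the interferon response genes was not tested.

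In control replicate 4 the B cell sum was 848.8, the T and NK cell sum 302.2 and the macrophage sum 4044.4, each within the range of the other controls. By mean log2 value, though, it was the lowest control for macrophage markers (7.44, others 7.56 to 7.71). The same held for fibroblast (9.07, others 9.23 to 9.38) and endothelial markers (7.81, others 8.00 to 8.17). The mean of 7 markers of plasmacytoid dendritic cells, which make much type I interferon, was 6.78 in that mouse and 6.77 to 6.89 in the other controls. This mean cannot show whether these cells differed. It includes Klk1 (12.89 to 13.13) and Tcf4 (9.24 to 9.42), bright in all 8 mice, and their cell source was not tested. In that mouse the markers ran from -0.30 (Siglech, 4.17 against 4.25 to 4.61) to 0.31 (Bst2, itself an interferon response gene) relative to the other controls. Smooth muscle markers were higher in Ptch1ΔCol1 mice in 8 of 8, where 52.9% of all genes were lower. Control replicate 4 was the lowest of all 8 mice for 7 of the 8, against 9.35% of all genes. The part of tissue makeup in the interferon values of control replicate 4 was not tested.

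**Figure D5:**
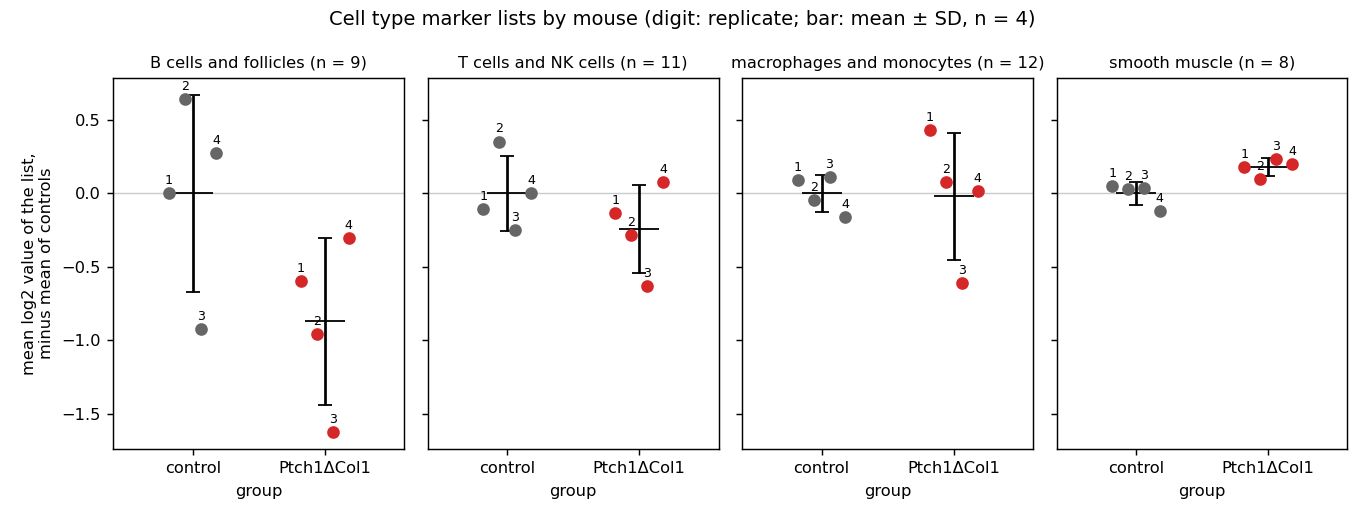
Each point is the mean log2 value of a marker list in 1 mouse, minus the mean of the 4 controls, with the group mean ± SD as bars (n = 4). Control replicate 4 lies among the other controls for B cells (0.28) and T and NK cells (0.00), and at the low end for macrophages (-0.16) and smooth muscle (-0.12).

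The Ifit, Oas, Gbp and Irg families hold closely related copies, and detection of one copy by the probes of another was not tested. Litter, cage and array batch are not stated in the sources used here, so what else set control replicate 4 apart was not tested.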

How the data were processed

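Values of 8 arrays (Affymetrix Mouse Gene ST 2.0, 1 colour) were used as deposited: log2 intensities, which the authors had normalized by RMA (robust multi-array average, median polish), from RNA with integrity numbers that passed the study's limit. Which software, version and annotation served for that step is not given in the sources used here. Platform annotation gave 1 symbol for 23521 of the 41345 transcript clusters (23328 matched to RefSeq, GRCm38.p6), several for 1820 and none for 16004. The brightest cluster of each gene was kept (1082 genes had several), which gave 22180 genes. Group differences were fitted by lmFit and eBayes (R 4.3.3, limma 3.58.1) and called at a Benjamini-Hochberg adjusted p of 0.05 over all genes. Exact permutation tests for single genes were two-sided over 70 relabellings. On simulated data of this comparison (22180 genes), 80 of 100 genes shifted by 1 log2 unit were called, as were 98 of 100 shifted by 2, beside 11 false calls. Smaller shifts, such as those of the 38 genes (-0.72 to 0.33), were not simulated, so these shares do not show how often they would be called. In the mice themselves Ptch1, with a log2 fold change of 0.815, had an unadjusted p of 8.12e-05 and an adjusted p of 0.139 from limma.

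The genes, lists and tests were chosen with earlier results of these data known. Values per mouse are given for Ifit3, for up to 4 genes per role with the smallest p, for the brightest gene of each role and for genes whose range over the mice is over 1.5 log2 units, and of each pathway list up to 3 genes with the smallest p and some by choice. Alternatives were quantile normalization, centring of each array on its median, the mean of a gene's clusters or each cluster on its own, removal of dim genes (below percentile 40), array weights, a trended and robust prior, models with replicate number, sex or reporter allele, females alone, 1 kind of control alone and omission of each mouse in turn. Every array came from its own mouse, and the number of arrays limits the precision.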

Additional observations from a re-analysis of the deposited data

Results flagged for a closer look

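In 3 of the 38 genes 1 control lay far from the other 3, and each time it was control replicate 4: Irf7 was at 9.73 there (8.70 to 8.76 in the others), Dhx58 at 7.34 (6.52 to 6.62) and Oas3 at 5.96 (4.17 to 4.43). In 1 of 38, Gbp7, Ptch1ΔCol1 replicate 3 lay far from its group, at 6.41 (7.09 to 7.18 in the others). Among the pathway genes named, the same was seen for Ciita in Ptch1ΔCol1 replicate 3 (4.58, others 5.33 to 5.45), Ifnab in control replicate 1 (2.86, the others all at 2.09), Psme2 in Ptch1ΔCol1 replicate 4 (6.34, others 6.80 to 6.87) and Socs1 in Ptch1ΔCol1 replicate 1 (5.44, others 4.99 to 5.03). Gaps of this size (by Dixon's ratio within a group of 4) are present for any mouse in 5.49% of all genes in controls and 5.50% in Ptch1ΔCol1 mice, where chance gives about 1 in 20. For control replicate 4 lying above the other controls, the share is 7.89% of the 38 genes (3 of 38) and 0.766% of all genes.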

How the results depend on the processing

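No gene of the 38 passed an adjusted p of 0.05 under any alternative run, the smallest being 0.257 (Ifit3 with dim genes left out, limma). The count of genes lower at an unadjusted p under 0.05, 3 in the comparison reported, was 5 with the replicate block (4.56% of all genes in that fit), 1 against the Ptch1fl/+ controls alone (2.58%) and 1 to 7 with each mouse left out (3.41% to 5.77%). The count higher was 2 with Ptch1ΔCol1 replicate 3 and control replicate 4 left out together (4.25%), an alternative chosen after seeing the data, and 0 to 2 with each mouse left out (3.34% to 5.24%). The count lower without overlap was 4 against the Ptch1fl/+ controls alone (7.35%), 3 against the R26-tdTomato controls alone (8.84%), 2 in females (9.82%), 1 with those 2 mice left out together (7.92%) and 0 to 4 with each mouse left out (4 without control replicate 3, 4.32%, and 3 without Ptch1ΔCol1 replicate 1, 5.46%). The replicate numbers do not pair the mice: deviations of same-numbered mice correlated at 0.03, -0.01, -0.05 and -0.02. Of 832 log2 fold changes of the 38 genes under alternatives, 61 changed sign, in 20 genes, and 18 genes kept theirs throughout. With each mouse left out, those that changed sign ranged from -0.255 to 0.075 (Bst2), -0.198 to 0.045 (Cmpk2), -0.163 to 0.11 (Dhx58), -0.0583 to 0.145 (Gbp6), -0.193 to 0.0633 (Gbp7), -0.128 to 0.055 (Ifit2), -0.443 to 0.0133 (Iigp1), -0.314 to 0.0292 (Irf7), -0.197 to 0.0167 (Irgm1), -0.164 to 0.0267 (Irgm2), -0.329 to 0.101 (Mx2), -0.0783 to 0.0883 (Parp9), -0.102 to 0.0767 (Trim30a) and -0.16 to 0.0133 (Xaf1). With those 2 mice left out together, the value was 0.0067 for Ddx58, 0.12 for Dhx58, 0.0833 for Ifit2, 0.0167 for Oasl2, 0.153 for Bst2, -0.0467 for Trim30a, 0.02 for Parp9, 0.0233 for Xaf1, 0.07 for Gbp7, 0.0167 for Iigp1, 0.07 for Igtp, 0.113 for Irgm2 and 0.0233 for Psmb9. It was 0.0475 for Irf7, 0.12 for Dhx58, 0.045 for Oas3, 0.01 for Bst2, -0.015 for Trim30a and 0.05 for Parp9 against the Ptch1fl/+ controls alone, and 0.04 for Ifit2, -0.0625 for Mx1, 0.0275 for Mx2 and -0.13 for Gbp6 against the R26-tdTomato controls alone. In females it was 0.0633 for Ifit2, 0.137 for Mx2, 0.05 for Bst2, -0.16 for Trim30a, 0.113 for Gbp7, 0.0133 for Irgm2 and -0.0167 for Ifnb1. Array weights gave 0.0248 for Ifit2 and -0.0501 for Trim30a, centring 0.01 for Ifit2 and 0.0175 for Parp9, quantile normalization 0.0123 for Ifit2 and 0.0056 for Parp9, and the mean of clusters 0.0088 for Irf8. The cause of these changes was not tested. The list means kept their sign except that of the GTPase genes with those 2 mice left out together (0.02). With 1 male in each group, the data cannot show whether the effect differed between the sexes. The number of arrays limits the precision.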
